A study of Mus musculus with 46 samples.

Results

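Polyamine synthesis and turnover in mouse skeletal muscle was described from 10 genes, chosen by name for their place in the pathway and matched by Ensembl identifier to the rows of both count tables. The choice was made with earlier results of these data known, so the shares of members called are descriptive and not an independent test. The members were 10 of 17514 genes in the gastrocnemius table and 10 of 16987 in the spinalis table, and no member was lost to a filter on low counts. The members of the synthesis arm were *Odc1*, *Amd1*, *Amd2*, *Srm* and *Sms*, those of the catabolic arm were *Smox*, *Sat1* and *Paox*, and those of antizyme control were *Oaz1* and *Azin1*.

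The study asked whether loss of α-actinin-3, the fast-fibre Z-disc protein encoded by *Actn3*, changes how muscle responds to androgens. In the first experiment, male C57BL6 mice (C57BL/6J in the study's methods) that were wild type (WT) or carried a germline *Actn3* knockout (KO) had their testes removed (orchidectomy, ORX) or were sham-operated when 8 to 10 weeks old, and gastrocnemius was taken 12 weeks later. This gave 6 sham and 6 ORX libraries from WT, and 6 sham and 5 ORX libraries from KO. In the second, female mice of the same strain and both genotypes received a 1 cm silastic implant, empty or holding 10 mg of dihydrotestosterone (DHT, a non-aromatisable androgen), when 4 to 5 weeks old, and spinalis was taken 6 weeks later. Each genotype gave 5 libraries with empty and 6 with DHT implants. Muscle, sex, age, duration and treatment therefore differed together between the experiments and cannot be told apart, and the knockout was present in every tissue from conception. Each library was made from total RNA of a piece of 1 muscle, so fewer cells of a type and less RNA per cell cannot be told apart in any value below.

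Libraries held 26653932 to 55369921 counts. *Actn3* was 145.1-fold lower in KO-sham than in WT-sham and 138.9-fold lower in KO-empty than in WT-empty, so the targeted gene followed the genotype labels. Summed fibre markers (*Ckm*, *Acta1*, *Myh4*, *Myh1*, *Tnnt3* and *Ryr1*) lay between 75510 and 159200 CPM (counts scaled to libraries of equal size) in every library. The spinalis libraries of 1 KO-DHT mouse (63KR, brown adipocyte markers at 225.3 CPM against a group median of 1.93) and 1 KO-empty mouse (61KR, macrophage markers at 115.3 CPM against a group median of 60.04) stood apart in markers of other cells, as did KO-ORX replicate 1 in gastrocnemius (fibroblast markers at 2757 CPM against a group median of 1360), and results that rest on them are also given without them. Mouse 61KR was also high in erythroid markers (537.3 CPM against a group median of 132). Other libraries exceeded their group medians too. Among them were KO-sham replicate 4 in white adipocyte markers (122.6 against 53.57 CPM) and KO-empty mouse 64KR in brown adipocyte markers (52.89 against 12.1 CPM). These were left out only in the fits that dropped 1 library at a time. Levels below are CPM after trimmed mean of M-values (TMM) scaling. Differences are log2 fold changes from edgeR's quasi-likelihood fit, and q is the Benjamini-Hochberg adjusted p over all genes of the table. The fit gives no standard error, so the SE shown is the absolute log2 fold change divided by the square root of the F statistic. A gene was called at q of at most 0.01 for a treatment or a genotype effect and at q of at most 0.05 for an interaction.

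Polyamines are small, positively charged amines that bind nucleic acids and are needed for translation and growth. Ornithine decarboxylase, encoded by *Odc1*, makes putrescine from ornithine and is a classic androgen-responsive enzyme in rodent tissues such as kidney. S-adenosylmethionine decarboxylase, encoded by *Amd1* and its intronless copy *Amd2*, supplies the aminopropyl groups that spermidine synthase (*Srm*) adds to putrescine and spermine synthase (*Sms*) adds to spermidine. In the reverse direction spermine oxidase (*Smox*) turns spermine into spermidine, while spermidine/spermine acetyltransferase (*Sat1*) acetylates polyamines for export or for oxidation by *Paox*. Antizyme (*Oaz1*) sends ornithine decarboxylase to the proteasome, and the antizyme inhibitor *Azin1* binds antizyme in its place.

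The coding sequences of *Amd1* and *Amd2* are shown because they set what the counts of these genes can separate. *Amd1* (GRCm38, chr10:40287458-40302186, minus strand) has 8 exons, and *Amd2* (chr10:35708675-35711892, minus strand) has 1. Their 1002 coding bases, stop codon left out, were 99.9% identical and differed at a single position, G796C, counted from the A of the start codon with the *Amd1* base first. The 61 coding bases around it, from 766 to 826, are given with that base in capitals.
Amd1: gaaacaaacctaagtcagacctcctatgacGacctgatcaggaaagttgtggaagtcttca
Amd2: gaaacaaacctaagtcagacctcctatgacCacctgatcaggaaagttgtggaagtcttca

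Of all 150-base windows in the *Amd1* exons, 57.6% were also found in *Amd2* or in *Amd-ps3*, a processed pseudogene, and 61.6% of the *Amd2* windows were found in another copy. Counts of these genes are therefore uncertain to the extent that reads were split between them. The *Amd2* share of the summed *Amd1*, *Amd2* and *Amd-ps3* counts had group medians of 7.106% to 9.022% over all 8 groups, and *Amd-ps3* took 7.821% to 8.546%. WT-ORX replicates 3 and 4 stood apart, with *Amd2* at 5.703% and 5.636% and *Amd-ps3* at 10.38% and 11.15%. The other WT-ORX libraries held 7% to 7.673% and 7.506% to 8.519%. The part of this split in the *Amd2* values of WT-ORX was not tested.

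On GRCm38, *Odc1* lies at chr12:17544794-17551505, *Smox* at chr2:131491496-131525922, *Srm* at chr4:148591503-148594993, *Paox* at chr7:140115799-140137224 and *Oaz1* at chr10:80826656-80829290, all on the plus strand. *Sat1* (chrX:155213132-155216449), *Sms* (chrX:157443855-157492287) and *Azin1* (chr15:38487427-38519266) are on the minus strand. The 250 bases before the RefSeq start sites of *Odc1*, *Amd1*, *Amd2*, *Smox* and *Sat1* are shown. The first 4 are the members with the largest differences between groups. *Sat1* is a catabolic member that was called lower with DHT in KO spinalis, where the first 4 rose. It was not called for DHT in WT spinalis or for ORX in either genotype. GC boxes (GGGCGG, either strand) and, in *Sat1*, the half-site of an androgen response element (AGAACA, either strand) are in capitals.
Odc1 (GRCm38.p6, chr12:17544623-17544872, plus strand): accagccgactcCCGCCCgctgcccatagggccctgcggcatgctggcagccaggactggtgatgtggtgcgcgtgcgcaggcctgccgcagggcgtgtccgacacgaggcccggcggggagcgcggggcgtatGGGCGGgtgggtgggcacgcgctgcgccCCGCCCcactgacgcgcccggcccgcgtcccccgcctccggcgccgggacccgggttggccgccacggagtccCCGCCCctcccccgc
Amd1 (GRCm38.p6, chr10:40302189-40302438, minus strand): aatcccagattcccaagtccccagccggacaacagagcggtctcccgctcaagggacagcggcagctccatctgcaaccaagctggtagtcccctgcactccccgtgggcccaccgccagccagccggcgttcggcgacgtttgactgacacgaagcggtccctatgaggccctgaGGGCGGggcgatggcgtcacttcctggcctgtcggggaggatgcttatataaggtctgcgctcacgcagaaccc
Amd2 (GRCm38.p6, chr10:35711892-35712141, minus strand): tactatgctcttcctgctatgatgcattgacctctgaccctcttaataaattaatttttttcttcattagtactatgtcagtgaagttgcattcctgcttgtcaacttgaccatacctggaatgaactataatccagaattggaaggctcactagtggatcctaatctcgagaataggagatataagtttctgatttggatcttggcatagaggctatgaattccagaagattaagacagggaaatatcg
Smox (GRCm38.p6, chr2:131491612-131491861, plus strand): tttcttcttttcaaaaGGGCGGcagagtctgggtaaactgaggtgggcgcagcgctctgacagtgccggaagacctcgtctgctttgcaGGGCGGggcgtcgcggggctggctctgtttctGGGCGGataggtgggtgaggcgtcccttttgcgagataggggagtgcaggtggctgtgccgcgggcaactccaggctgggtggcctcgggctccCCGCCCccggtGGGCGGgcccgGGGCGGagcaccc
Sat1 (GRCm38.p6, chrX:155216450-155216699, minus strand): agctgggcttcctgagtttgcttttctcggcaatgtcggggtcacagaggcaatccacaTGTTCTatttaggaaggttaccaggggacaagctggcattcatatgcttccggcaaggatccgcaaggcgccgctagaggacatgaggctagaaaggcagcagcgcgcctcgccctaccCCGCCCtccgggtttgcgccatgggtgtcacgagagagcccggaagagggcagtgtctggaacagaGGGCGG

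Including 50 bases after the start site, the window held 4 GC boxes in *Odc1*, 6 in *Smox*, 1 in *Amd1*, 2 in *Sat1* and 0 in *Amd2*, against at least 1 in 35.7% of 32851 RefSeq promoters. The AGAACA half-site, present in 19% of all promoters, was found in *Sat1* and not in the windows of the other 4 genes shown. It was also absent from the windows of *Paox*, not shown, whose fitted value fell with DHT too without being called. The palindrome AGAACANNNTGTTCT was in none of these windows and in 0.00913% of all promoters. The *Amd1* and *Amd2* windows had no run of more than 7 bases in common before their start sites, and a shared run of 48 bases after them. The GC content of the 300 bases was 63% for *Amd1* and 40.7% for *Amd2*, with a median of 52.7% over all promoters. These are matches of letters only.

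The first question was how the pathway responded to DHT in WT spinalis. *Odc1*, *Amd1*, *Amd2*, *Smox*, *Sms*, *Azin1* and *Oaz1* rose, 7 of 10 members, with 6.63% of all genes called higher in the same comparison (4.54% with library-size scaling). No member was called lower, with 4.64% of all genes (5.87% with library-size scaling). *Amd1* and *Amd2* each count as a member here and in every count below, although shared reads may keep them from being separate observations. The median log2 fold change was 0.47 over the members and -0.01 over all genes.

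*Amd1* rose the most. It stood at 82.55, 79.55, 79.54, 93.16 and 69.13 CPM in the 5 WT-empty libraries and between 774.3 and 979.3 CPM, with a median of 891.3, in the 6 WT-DHT libraries. The groups were far apart, and the fitted difference was 10.96-fold (log2 fold change 3.45, SE 0.11, q = 3.08e-17). By p it ranked 3 among the 16987 genes of the table. *Amd2*, at 7.971 to 9.709 CPM in WT-empty and 84.16 to 106.7 CPM in WT-DHT, moved with it by 10.75-fold, as reads shared between the copies would also give.

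*Smox* stood at 94.58, 94.27, 90.35, 102.7 and 76.38 CPM in WT-empty. WT-DHT libraries held 599.1 to 1009 CPM, with a median of 761.7, so every treated library exceeded every control. The difference was 8.37-fold (log2 fold change 3.06, SE 0.16, q = 6.84e-13). *Odc1*, which opens the synthesis arm, was at 54.16, 58.32, 78.08, 52.44 and 65.03 CPM in WT-empty and at 253.1 to 354.8 CPM, median 304.7, in WT-DHT. It rose 4.99-fold (log2 fold change 2.32, SE 0.13, q = 1.43e-12), again without overlap. The largest responses thus fell on both decarboxylases of synthesis and on 1 of the catabolic oxidases.

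The remaining calls in WT were small. *Sms* was at 51.98, 55.68, 52.99, 50.76 and 57.14 CPM in WT-empty and 72.26 to 84.31 CPM in WT-DHT, a 1.44-fold rise (log2 fold change 0.52, SE 0.06, q = 6.72e-07) with no overlap. *Azin1* rose 1.33-fold (q = 0.00145) from 53.14 to 77.15 CPM in WT-empty to 82.34 to 95.83 CPM in WT-DHT. *Oaz1*, its opponent, rose 1.24-fold (q = 0.00233) from 40.45 to 44.84 CPM to 49.64 to 62.32 CPM. Antizyme and its inhibitor therefore moved the same way. Both calls depended on TMM scaling, since with library-size scaling q was 0.0524 for *Oaz1* and 0.0176 for *Azin1*. Endothelial markers moved in the same comparison, from 122.9 to 168 CPM summed in WT-empty to 169.7 to 215.5 CPM in WT-DHT, with 2 of 4 called higher, and their part in these small changes was not tested.

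The other catabolic genes and *Srm* were lower by their fitted values but did not pass. *Sat1* had a log2 fold change of -0.33 (SE 0.11, q = 0.0345), *Paox* one of -0.42 (SE 0.13, q = 0.0246), and *Srm* one of -0.38 (SE 0.14, q = 0.0589). *Paox* was scarce, at 2.561 to 3.243 CPM in WT-empty and 1.812 to 2.412 CPM in WT-DHT, and its groups did not overlap. *Smox* was thus the single catabolic gene called higher.

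**Figure D1:**
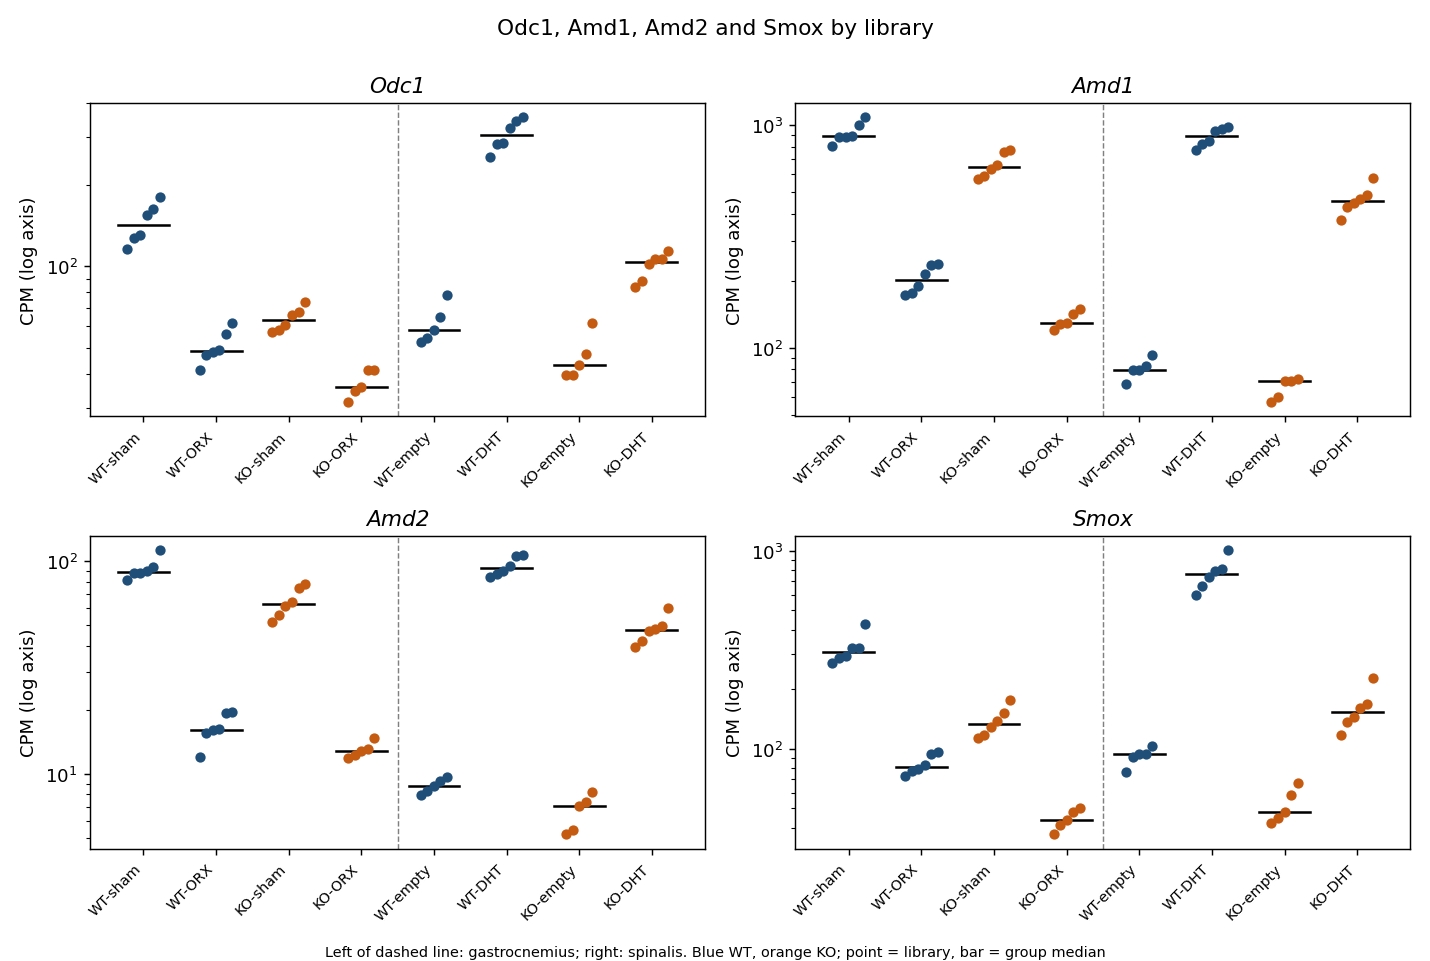
CPM (log axis) of *Odc1*, *Amd1*, *Amd2* and *Smox* in each of 45 libraries, by group, with a bar at the group median. The WT-DHT points of all 4 genes lie above every WT-empty point, and KO-DHT points lie between them.

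In KO spinalis, DHT raised *Amd1*, *Amd2*, *Smox* and *Odc1* and lowered *Sat1*. These were 4 of 10 members called higher against 2.86% of all genes, and 1 of 10 called lower against 1.75%. *Sms*, *Azin1* and *Oaz1* were not called.

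*Amd1* was at 59.94, 71.17, 57.24, 70.93 and 72.82 CPM in KO-empty and at 375 to 577.1 CPM, median 457.4, in KO-DHT. This was a 6.97-fold rise (log2 fold change 2.80, SE 0.11, q = 2.86e-15), and by p 1 gene of the table, its copy *Amd-ps3*, ranked before it. *Amd2* rose 7.14-fold, from 5.191 to 8.249 CPM in KO-empty to 39.39 to 60.11 CPM in KO-DHT. Neither gene's groups overlapped.

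*Smox* stood at 42.04, 67.18, 44.53, 47.96 and 58.29 CPM in KO-empty and at 117.8 to 228.9 CPM, median 153.1, in KO-DHT (3.07-fold, q = 1.15e-07). *Odc1* was at 61.76, 39.58, 39.66, 47.3 and 43.1 CPM in KO-empty and at 83.61 to 114.1 CPM, median 104, in KO-DHT (2.16-fold, q = 1.22e-06). Both rose without overlap. The KO-DHT medians of these genes remained below the WT-DHT minima given above.

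*Sat1*, the acetyltransferase, went the other way. The KO-empty libraries held 28.4, 33.28, 28.94, 40.24 and 31.85 CPM, and the KO-DHT libraries 18.91 to 25.05 CPM with a median of 21.42, all below the controls. It fell to 66.7% of the KO-empty level (log2 fold change -0.58, SE 0.11, q = 0.000822). The highest value, 40.24 CPM, belonged to mouse 61KR, the library high in macrophage markers, and *Sat1* was also called lower without it and mouse 63KR (log2 fold change -0.51, SE 0.11, q = 0.00522). The *Sat1* window printed above holds an AGAACA half-site, as do 19% of all promoters, and its part in this fall was not tested.

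*Sms* was at 38.16 to 46.86 CPM in KO-empty and 45.18 to 51.85 CPM in KO-DHT, overlapping, with a log2 fold change of 0.14 (SE 0.06, q = 0.157). *Azin1* had one of 0.02 (SE 0.09, q = 0.928), *Srm* one of -0.20 (SE 0.14, q = 0.408) and *Paox* one of -0.15 (SE 0.13, q = 0.498). *Oaz1* had a log2 fold change of 0.21 (SE 0.07, q = 0.059), and for this gene the counting of copies mattered. Its processed pseudogene *Oaz1-ps* held 147% of the *Oaz1* counts in the median spinalis library, and when the 2 were summed the difference was 0.29 (q = 0.00249) and was called.

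The test of the difference between genotypes in the DHT response called 5 members, all with a smaller rise in KO, against 1.9% of all genes called in that direction (1.36% with library-size scaling). *Smox* had the largest interaction, with a log2 difference of -1.45 (SE 0.21, q = 0.000121), so that its fold rise in KO was 36.7% of that in WT. *Odc1* followed at -1.21 (SE 0.17, q = 9.88e-05), or 43.3%. *Amd1* differed by -0.65 (SE 0.14, q = 0.00608), or 63.6%. The oxidase and ornithine decarboxylase therefore showed lower proportions of the WT response than S-adenosylmethionine decarboxylase did, a ranking of fitted values that was not itself tested.

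*Sms* had an interaction of -0.38 (SE 0.09, q = 0.0105), which was not called with library-size scaling (q = 0.0565). The *Amd2* interaction of -0.59 (SE 0.16, q = 0.0376) was the least firm, with q = 0.121 when mice 63KR and 61KR were left out, q = 0.086 with limma-voom, and no call in 12 of the 22 fits that left out 1 library. *Azin1* (-0.40, q = 0.0938), *Sat1* (-0.25, q = 0.462), *Oaz1* (-0.11, q = 0.688), *Paox* (0.26, q = 0.541) and *Srm* (0.18, q = 0.726) did not pass. Without mice 63KR and 61KR, 4 members had a called interaction, beside 424 of all 16987 genes. Members called then numbered 7 for DHT in WT, beside 1920 of all genes, and 5 for DHT in KO, beside 533. They numbered 3 for KO-empty against WT-empty, beside 530 of all genes, and 7 for KO-DHT against WT-DHT, beside 1714.

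**Figure D2:**
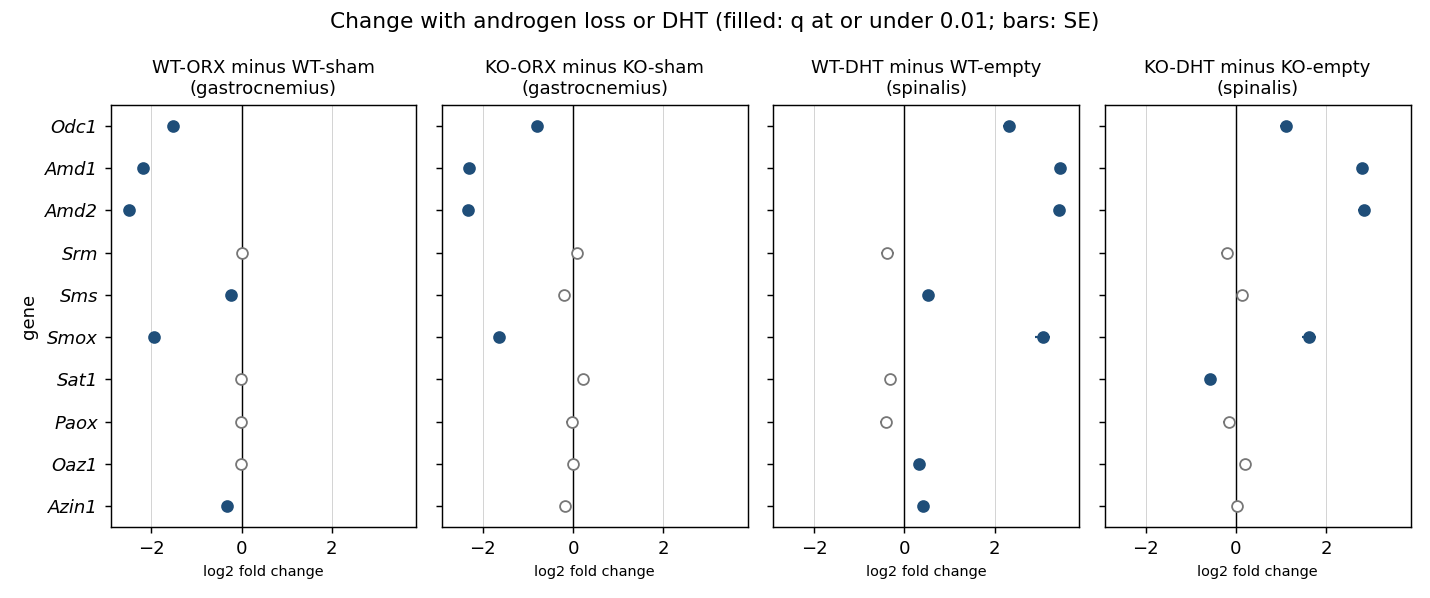
Log2 fold change with its SE (bars) of the 10 members for ORX against sham in gastrocnemius and DHT against empty in spinalis, in WT and KO. *Odc1*, *Amd1*, *Amd2* and *Smox* lie below 0 under ORX and above 0 under DHT in both genotypes, and the KO points under DHT are nearer 0.

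Genotypes were then compared under each treatment. Under DHT, *Smox* was 4.81-fold lower in KO than in WT (log2 fold change -2.27, SE 0.15, q = 5.16e-11) and *Odc1* 3.07-fold lower (-1.62, SE 0.12, q = 3.07e-10). *Amd1* and *Amd2* were 1.91-fold and 1.99-fold lower. *Sms* (1.61-fold, q = 5.32e-09) and *Azin1* (1.35-fold, q = 0.000616) were lower too, and 6 of 10 members called lower compares with 6.51% of all genes (4.04% with library-size scaling, which also left *Azin1* at q = 0.0103). Libraries of WT-DHT and KO-DHT did not overlap for any of these 6 genes.

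*Sat1* was the one member called higher in KO under DHT, against 5.13% of all genes (7.62% with library-size scaling). It was at 13.96 to 20.15 CPM in WT-DHT and 18.91 to 25.05 CPM in KO-DHT, which overlapped, and the difference was 1.32-fold (log2 fold change 0.40, SE 0.10, q = 0.00702). Leaving out 1 library removed this call in 7 of 22 fits. *Oaz1* stood at 49.64 to 62.32 CPM in WT-DHT and 55.92 to 66.96 CPM in KO-DHT (0.19, SE 0.07, q = 0.0525), and its sum with *Oaz1-ps* was called higher (0.24, q = 0.00334). *Paox* (0.27, q = 0.145) and *Srm* (-0.06, q = 0.825) were not called. Of the satellite cell markers, 2 of 3 were also higher in KO-DHT, and their part in these differences was not tested.

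In the empty-implant muscles the genotypes differed in fewer members. *Smox* was 1.76-fold lower in KO (log2 fold change -0.82, SE 0.16, q = 0.00142) with no overlap, and *Sms* 1.23-fold lower (-0.30, SE 0.06, q = 0.00379), making 2 of 10 called lower against 2.5% of all genes (1.48% with library-size scaling). The *Sms* call was lost with library-size scaling (q = 0.0324) and when the 2 groups were fitted alone (q = 0.0312). *Sat1* was 1.57-fold higher in KO (0.66, SE 0.11, q = 0.000535), at 28.4 to 40.24 CPM against 25.51, 21.04, 20.56, 19.65 and 16.67 CPM in WT-empty, 1 of 10 members against 1.75% of genes called higher (1.66% with library-size scaling). Without mice 61KR and 63KR its log2 fold change was 0.57 (q = 0.00231). *Sat1* was thus higher in KO spinalis with either implant, and *Smox* lower with either.

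*Odc1* in KO-empty had a log2 fold change of -0.41 from WT-empty (SE 0.13, q = 0.0405), *Amd1* one of -0.28 (SE 0.10, q = 0.0801) and *Amd2* one of -0.40 (SE 0.12, q = 0.0371), none of which passed. *Oaz1* was at 49.16 to 63.22 CPM in KO-empty and 40.45 to 44.84 CPM in WT-empty, without overlap, and missed the threshold (0.29, SE 0.07, q = 0.0127). It passed with DESeq2 (q = 0.00443) and with a minimum of 10 counts in every library (q = 0.00954). Without mice 61KR and 63KR its q was 0.0311, and its sum with *Oaz1-ps* was not called. *Oaz1-ps* alone had a log2 fold change of 0.18 (q = 0.17). *Srm* (-0.24, q = 0.329), *Paox* (0.01, q = 0.987) and *Azin1* (-0.04, q = 0.865) were not called. Summed macrophage markers ran from 39.04 to 115.3 CPM in KO-empty and from 42.74 to 64.51 CPM in WT-empty, and their part in the *Sat1* and *Oaz1* values was not tested.

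**Figure D3:**
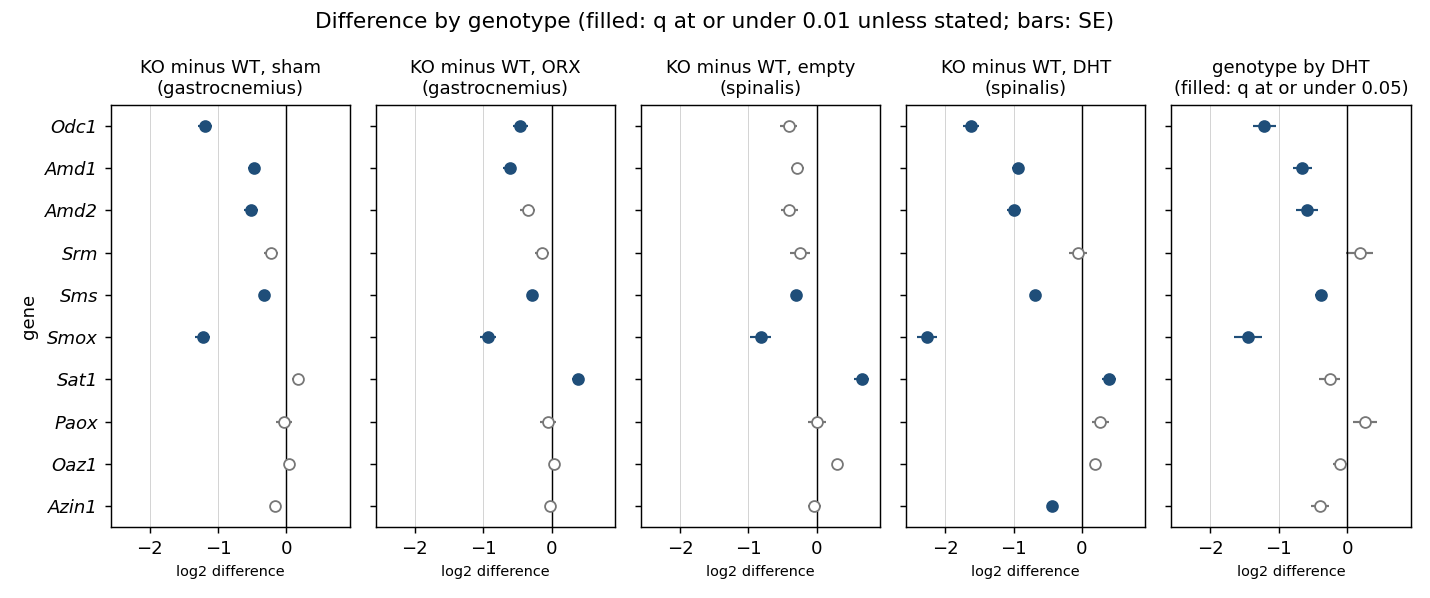
Log2 fold change with its SE (bars) of KO against WT for the 10 members in sham, ORX, empty and DHT muscles, with the genotype by DHT interaction. *Smox* lies below 0 in all 4 settings and lowest under DHT at -2.27, and *Sat1* lies above 0 in all 4 (called in ORX, empty and DHT).

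In gastrocnemius, ORX lowered 6 of 10 members in WT (*Amd2*, *Amd1*, *Smox*, *Odc1*, *Azin1* and *Sms*) against 3.41% of all genes called lower (2.02% with library-size scaling), and 4 of 10 in KO (*Amd2*, *Amd1*, *Smox* and *Odc1*) against 3.58% (1.1% with library-size scaling). With 2.04% of all genes called higher in WT and 1.99% in KO (2.41% and 4.04% with library-size scaling), no member was. The median log2 fold change over the members was -0.29 in WT and -0.19 in KO, and over all genes it was 0.01 in both.

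*Amd1* fell from 802 to 1081 CPM, median 889, in WT-sham to 172.9 to 237.2 CPM, median 201.6, in WT-ORX. In KO it fell from 571.1 to 770.3 CPM in sham to 142.1, 148.7, 120.7, 128.5 and 128.9 CPM in the 5 ORX libraries. No sham library came near an ORX library of its genotype. The fitted loss was 4.96-fold in KO (log2 fold change -2.31, SE 0.10, q = 1.42e-14) and -2.18 on the log2 scale in WT (SE 0.09, q = 2.36e-15). *Amd2* counts fell 5.61-fold in WT and 5.00-fold in KO.

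*Smox* fell 3.83-fold in WT (q = 1.56e-12), from 270.8 to 428.2 CPM to 73.17 to 96.78 CPM. In KO it fell 3.12-fold (q = 3.02e-10), from 112.7 to 175.3 CPM to 36.96, 47.76, 50.15, 41.06 and 43.91 CPM. The WT-ORX libraries of *Smox* thus lay below all KO-sham libraries.

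*Odc1* was at 115.4 to 180.1 CPM, median 142.5, in WT-sham and 41.41 to 61.69 CPM, median 48.6, in WT-ORX (log2 fold change -1.52, SE 0.10, q = 4.44e-11). In KO it was at 56.95 to 73.41 CPM in sham and at 41.43, 41.38, 34.6, 31.5 and 35.83 CPM after ORX (-0.79, SE 0.11, q = 1.95e-05). Groups did not overlap in either genotype. The genotype by ORX interaction of *Odc1* was 0.73 (SE 0.15), which had an unadjusted p of 3.88e-05 and ranked 10 among 17514 genes but missed the threshold with edgeR (q = 0.0595). DESeq2, which called 127 genes for this interaction, called it (0.72, q = 0.00218). It was not called with limma-voom or in 20 of 23 edgeR fits that left out 1 library. Without KO-ORX replicate 1 its q was 0.126. With edgeR 0 of 10 members had a called ORX interaction, as did 0.0228% of all genes, while 1683 genes had an unadjusted p under 0.05.

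The smaller ORX calls in WT were *Azin1* (1.26-fold lower, q = 0.00194) and *Sms* (1.18-fold lower, q = 0.00367), and neither passed with library-size scaling (q = 0.0298 and 0.0466). In KO, *Sms* had a log2 fold change of -0.20 (q = 0.0233, and 0.00745 with DESeq2) and *Azin1* one of -0.18 (q = 0.115). *Sat1* was at 19.54 to 22.33 CPM in WT-sham and 19.29 to 22.81 CPM in WT-ORX, a log2 difference of -0.00 with an SE of 0.08. *Oaz1* had a log2 difference of -0.01 (SE 0.06) in WT and in KO. *Srm* (0.01 in WT, 0.09 in KO) and *Paox* (-0.01 in WT, -0.03 in KO), under 6 CPM in every library, had no call in either genotype.

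Between genotypes in sham muscle, *Smox* (2.34-fold), *Odc1* (2.28-fold), *Amd2* (1.43-fold), *Amd1* (1.39-fold) and *Sms* (1.25-fold) were lower in KO, 5 of 10 members against 2.82% of all genes. *Sms* ranges overlapped, at 67.76 to 79.59 CPM in WT-sham and 53.8 to 68.73 CPM in KO-sham. *Srm* (log2 fold change -0.23, q = 0.166), *Azin1* (-0.17, q = 0.138), *Sat1* (0.16, q = 0.238), *Oaz1* (0.04, q = 0.774) and *Paox* (-0.04, q = 0.898) were not called. After ORX, *Smox* (1.91-fold, q = 5.24e-06), *Amd1* (1.53-fold, q = 8.74e-05), *Sms* (1.22-fold, q = 0.00196) and *Odc1* (1.37-fold, q = 0.00763) were lower in KO, 4 of 10 against 2.73% (1.43% with library-size scaling). *Amd2* alone was not called (-0.35, SE 0.11, q = 0.0619), but the summed counts of *Amd1*, *Amd2* and *Amd-ps3* were lower in KO by -0.60 on the log2 scale (q = 9.16e-05). *Srm* (-0.14, q = 0.514), *Paox* (-0.06, q = 0.858), *Oaz1* (0.04, q = 0.826) and *Azin1* (-0.02, q = 0.937) did not pass. Fibre markers also moved after ORX, with 4 of 6 called lower in KO, and their part was not tested.

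*Sat1* was higher in KO after ORX by 1.30-fold (log2 fold change 0.38, SE 0.09, q = 0.0049), 1 of 10 members against 1.07% of genes called higher (1.27% with library-size scaling). The 5 KO-ORX libraries held 29.29, 32.47, 28.68, 20.17 and 24.76 CPM and overlapped the WT-ORX range of 19.29 to 22.81 CPM through 1 of them. This call was lost in 7 of 23 fits that left out 1 library and when the 2 groups were fitted alone (q = 0.035). Without KO-ORX replicate 1, the library high in fibroblast markers, its log2 fold change was 0.35 (q = 0.0191). Members called without that library numbered 4 for KO-ORX against WT-ORX, beside 495 of all 17514 genes. They numbered 4 for ORX in KO, beside 659 of all genes, and 0 for the interaction, beside 4. *Odc1* lost its ORX genotype call in 8 of 23 such fits, with q up to 0.0323, and with library-size scaling (q = 0.0271), as did *Sms* with that scaling (q = 0.0341).

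**Figure D4:**
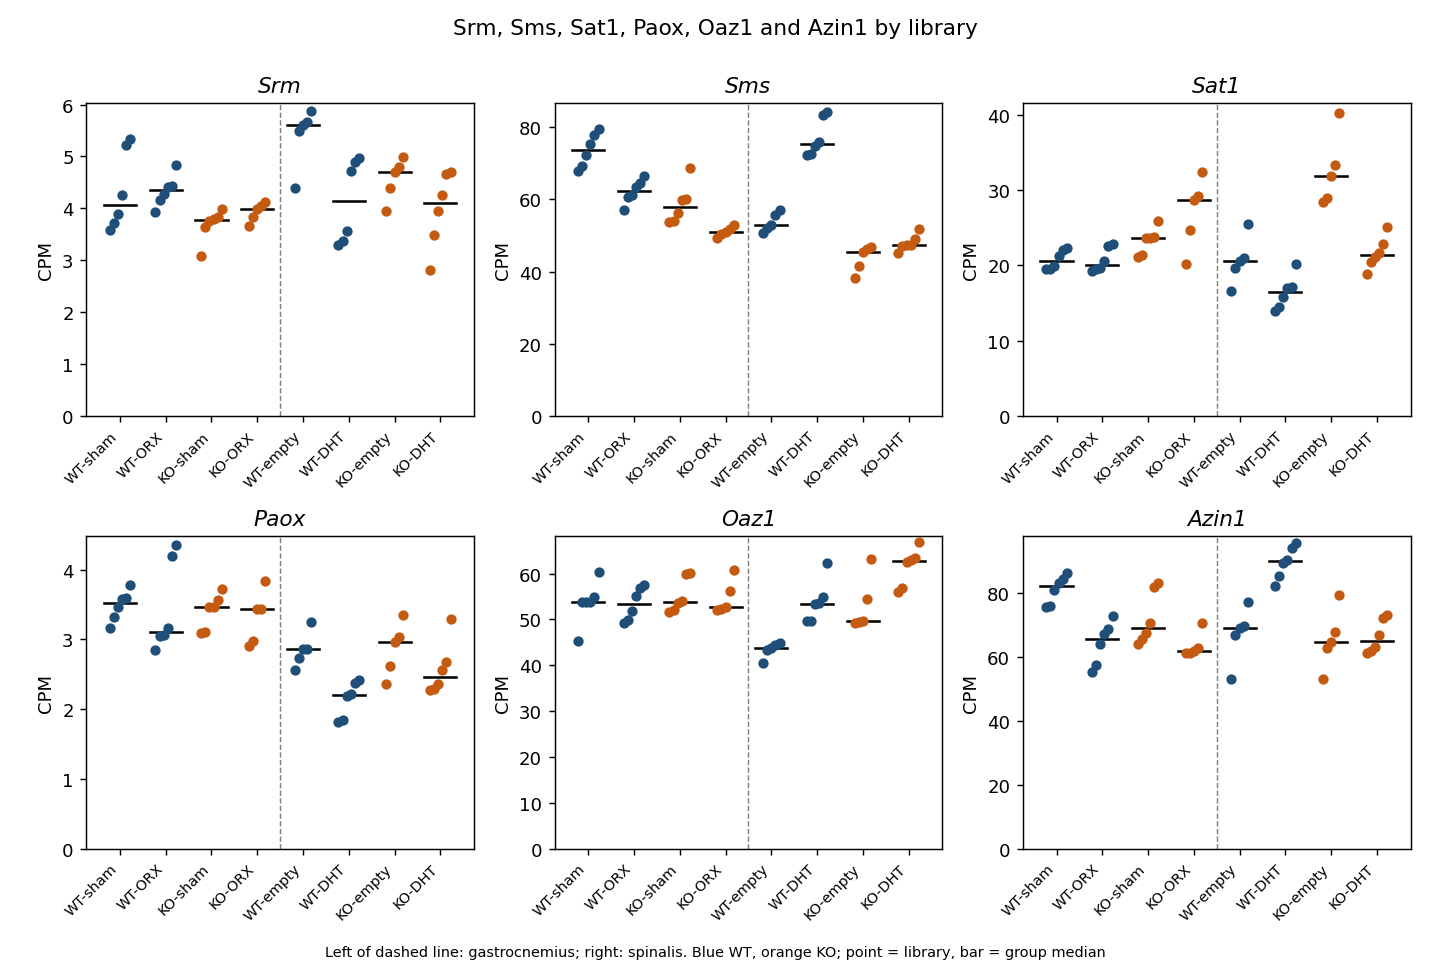
CPM (linear axis from 0) of *Srm*, *Sms*, *Sat1*, *Paox*, *Oaz1* and *Azin1* in each of 45 libraries, by group, with a bar at the group median. *Sat1* is highest in KO-empty, at 28.4 to 40.24 CPM, while *Srm* and *Paox* stay under 6 CPM throughout.

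The 2 experiments, which differ in sex, age, duration and treatment as well as muscle, were joined in 1 fit. It covered the 16642 genes listed in both tables. In WT, the androgen effect (sham minus ORX, or DHT minus empty) was smaller in gastrocnemius than in spinalis for *Amd1* (-1.28, SE 0.13, q = 3.23e-09), *Smox* (-1.13, SE 0.19, q = 6.07e-05), *Amd2* (-0.94, q = 6.21e-05), *Odc1* (-0.80, SE 0.16, q = 0.000971), *Oaz1* (-0.31, q = 0.0422) and *Sms* (-0.28, q = 0.0308). These were 6 of 10 members against 2.93% of all genes (1.89% with library-size scaling, under which *Sms* and *Oaz1* had q = 0.15 and 0.169). In KO, 0 of 10 members were called, against 1.06% of all genes (177 genes, with 2226 at an unadjusted p under 0.05), and DESeq2 called *Amd1* (q = 0.0422). The control levels themselves stood apart. *Amd1* was at 802 to 1081 CPM in WT-sham and 69.13 to 93.16 CPM in WT-empty, while WT-DHT, at 774.3 to 979.3 CPM, overlapped the former.

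The effect of genotype in control muscle differed between the experiments for *Odc1* alone among the members (-0.76, SE 0.17, q = 0.0109), against 0.745% of genes called in that direction (0.895% with library-size scaling). *Odc1* was lower in KO by -1.19 on the log2 scale in sham gastrocnemius and by -0.41 in empty-implant spinalis. *Sat1* had a difference of -0.48 (SE 0.14, q = 0.0622), called by DESeq2 (q = 0.0346).

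Per kilobase of exon, *Amd1* was the most abundant member in WT-sham, with a median of 251 CPM per kb. *Smox* followed with 79.27 and *Odc1* with 41.84 CPM per kb. *Amd2* (27.67) and *Oaz1* (21.06) came next, and *Azin1* (13.12) and *Sms* (12.27) were close to each other. *Sat1* had 7.42, *Srm* 2.55 and *Paox* 0.72 CPM per kb. Levels of *Amd2* and *Oaz1* are the least certain in this order because of their copies. Exon windows shared with a copy made up 11.2% for *Oaz1*, 15.5% for *Sms*, 20.4% for *Paox*, 1.68% for *Odc1* and 0 for *Srm*, *Smox* and *Sat1*. *Azin1* shared 3.08% of its windows with *Gm49077*, an antisense gene that overlaps it. *Sms-ps* held 77.3% of the *Sms* counts in the median spinalis library, and the *Sms* calls held when the 2 were summed. *Paox* overlaps exons of *Echs1* on the opposite strand, as *Azin1* does those of *Gm49077*, and the strand setting of the counting is not given in the sources used here.

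Genes of similar pattern over the 45 libraries were sought for *Amd1*, *Odc1* and *Smox*. Likeness was the root mean square difference of log2 CPM after each gene was centred within each experiment, over 16641 genes. Nearest to *Amd1*, whose own root mean square was 1.391, were its copies *Amd-ps3* (0.1169) and *Amd2* (0.1352), then *Cdk19* (0.4476), a kinase of the Mediator complex at chr10:40339564-40483818 on the plus strand, the same chromosome as *Amd1*. Nearest to *Odc1* (0.9194) were *Gm7993* (0.1431) and *Gm17709* (0.2206), which share exon windows with it, and *Spns2* (0.2072), a sphingosine-1-phosphate transporter. Nearest to *Smox* (1.275) were *Npnt* (0.404), *Spns2* (0.431) and *Cacna2d4* (0.442), a calcium channel subunit. These values describe libraries that share groups and carry no test.

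Of 22 other genes of polyamine supply, use and control, 18 were listed. In WT spinalis DHT raised 3 of 18 and lowered 3, beside 6.63% and 4.64% of all genes. *Eif5a2*, a translation factor that carries the spermidine-derived residue hypusine, rose (log2 fold change 1.34, SE 0.21, q = 3.47e-05), as did *Mat2a*, which makes S-adenosylmethionine (0.69, SE 0.12, q = 0.000104). *Oat*, which turns ornithine away from polyamine synthesis, fell by 0.51 (SE 0.07, q = 1.25e-05). In KO spinalis DHT raised *Oaz2*, a further antizyme (0.31, q = 0.00246), and the other 17 were not called, beside 2.86% of all genes higher and 1.75% lower.

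Under ORX in WT gastrocnemius *Slc7a2*, an arginine and ornithine transporter, rose (0.58, SE 0.11, q = 0.000537), *Oaz2* rose (0.27, SE 0.05, q = 0.000589) and *Mat2a* fell by 0.33 (q = 0.00376), while 0 of 18 were called in KO, beside 1.99% of all genes higher and 3.58% lower. *Oaz2* was higher in KO than in WT in sham (0.41, q = 2.66e-06), empty (0.58, q = 4.23e-06) and DHT (0.59, q = 1.36e-07) muscles, and was not called after ORX. In KO-sham against WT-sham 1 of 18 was called higher, beside 2.48% of all genes. After ORX 1 of 18, a hypusine gene, was called lower in KO, beside 2.73%. With empty implants 1 was called higher and 1 lower, beside 1.75% and 2.5%. Under DHT 1 was called higher and 2 lower, beside 5.13% and 6.51%. *Oat* was lower in KO with empty implants (-0.43, q = 0.000698). Under DHT, *Mat2a* (-0.49, q = 0.00232) and *Eif5a2* (-0.85, q = 0.00227) were lower in KO, as *Amd1* was. None of the 18 had a called genotype by treatment interaction, beside 3.24% of all genes for DHT and 0.0228% for ORX.

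**Figure D5:**
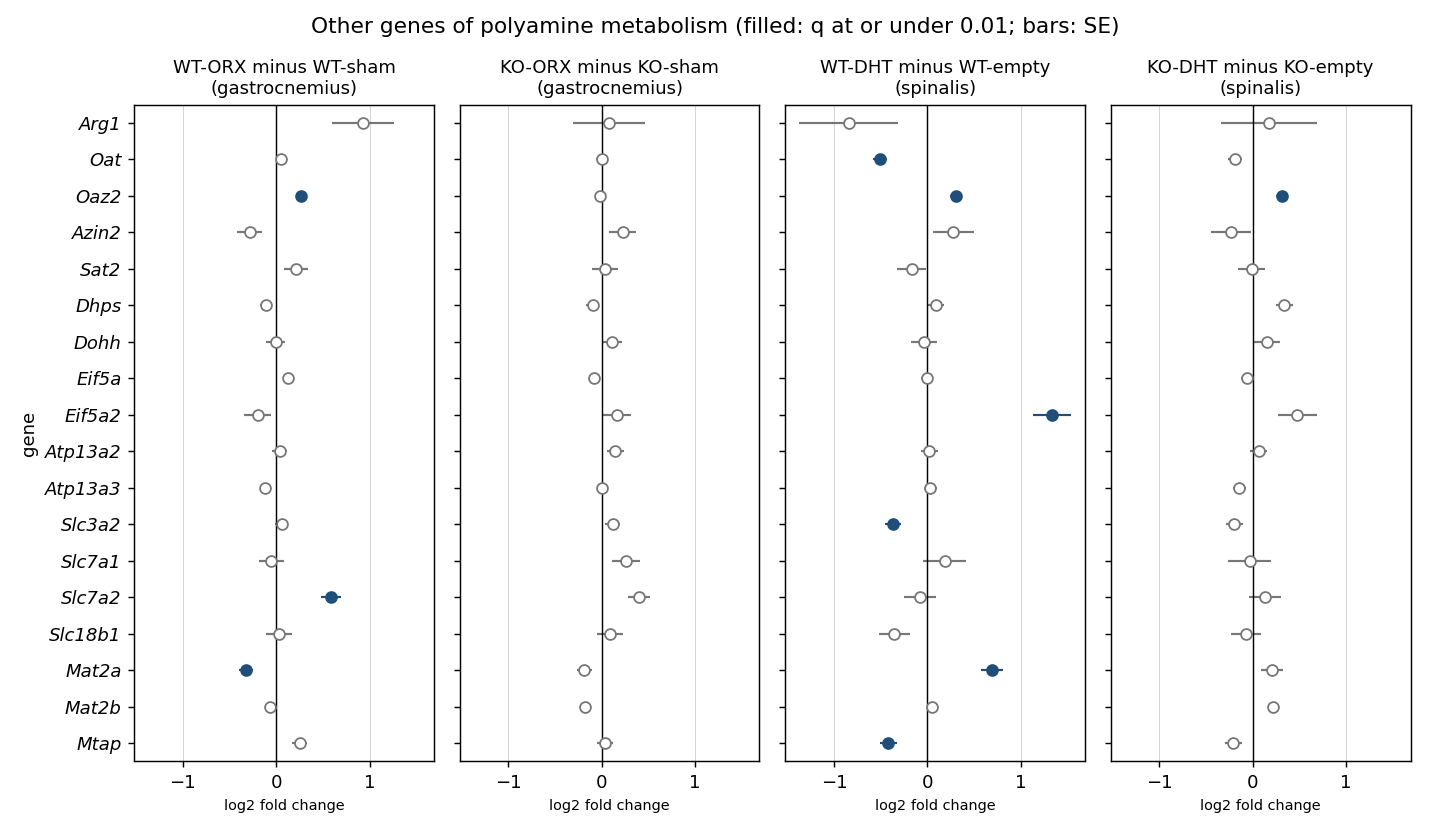
Log2 fold change with its SE (bars) of 18 other polyamine genes for ORX against sham in gastrocnemius and DHT against empty in spinalis, in WT and KO. *Eif5a2* in WT under DHT, at 1.34, stands furthest from 0 among the called genes.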

How the data were processed

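RNA of mouse gastrocnemius and spinalis was sequenced from a stranded total RNA library kit, and 45 of the 46 samples described were analysed here (5 columns were listed for the 6 labelled KO-ORX samples). The authors deposited raw read counts per gene, 1 table for each muscle. Per the submitters' processing notes these came from STAR 2.7.1b, Picard 2.20.2, SAMtools 1.9 and featureCounts of Subread 2.0.0 on GRCm39, and the parameters and strand setting are not given in the sources used here. Coordinates and exon lengths were taken from the GENCODE annotation of GRCm38, and promoters from RefSeq, matched by identifier or symbol, so they describe another build than that of the counts. *Srm* and *Azin1* had no entry in the promoter table used here. Symbols were found for 17433 of 17514 gastrocnemius genes and 16920 of 16987 spinalis genes.

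Counts were TMM-scaled and fitted with edgeR 4.0.16 in R 4.3.3 (quasi-likelihood F test, a mean for each group, all 4 groups of a table in 1 fit, no covariate), with Benjamini-Hochberg adjustment over all genes. Thresholds were q of 0.01 for effects and 0.05 for interactions. Requiring 0.5 CPM or more in 2 libraries removed 0 genes, since every listed gene already met this cutoff, which the study's methods also name. Shares of all genes are therefore shares of the genes listed and not of all annotated genes. Differences between experiments came from 1 fit of all 8 groups over 16642 shared genes. Log2 CPM used a prior count of 2. P-values set a difference between group means against the spread between samples within groups, estimated over all groups of a fit. The scripts were tested on simulated data. DESeq2 1.42.0, limma-voom (limma 3.58.1), library-size scaling, stricter filtering, summed *Amd* copies, fits of the compared groups alone, a replicate block and leaving out each library were tried as other ways of processing. Leaving out mice 63KR and 61KR, and summing *Odc1*, *Sms*, *Paox* and *Oaz1* with their processed pseudogenes, were added after seeing the data. The members, the lists and the thresholds were chosen with earlier results of these data known.

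The rule for named genes took all 10 members, whatever their values, with *Amd-ps3* and *Actn3*. Of other polyamine genes, at most the 3 with the smallest q are named in a comparison, and for *Amd1*, *Odc1* and *Smox* the 3 genes of most similar pattern. Figures were drawn with matplotlib 3.10.9.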

Additional observations from a re-analysis of the deposited data

Results flagged for a closer look

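In 3 of 80 groups of values (each member in each group) 1 library lay far from the others of its group by Dixon's test, where chance gives about 1 in 20. *Srm* was at 3.086 CPM in KO-sham replicate 1, with the others at 3.651 to 3.991 CPM, and at 4.393 CPM in WT-empty mouse 4KR, with the others at 5.5 to 5.874 CPM. *Azin1* was at 70.69 CPM in KO-ORX replicate 1 and at 61.21 to 62.86 CPM in the other 4 libraries.

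The DHT effect differed between genotypes by the interaction test for *Smox* (-1.447 on the log2 scale), *Odc1* (-1.208), *Amd1* (-0.6519), *Amd2* (-0.59) and *Sms* (-0.3841), and was smaller in KO in each case. The genotype effect in control muscle differed between the experiments for *Odc1* (-0.7559). Muscle, sex, age, duration and treatment differ together between the experiments and cannot be told apart. The androgen effect in WT differed between the experiments for *Amd1* (-1.277), *Smox* (-1.13), *Amd2* (-0.9378), *Odc1* (-0.8002), *Oaz1* (-0.3069) and *Sms* (-0.2804), and was smaller in gastrocnemius in each case.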

How the results depend on the processing

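Counts of members called moved by more than 1.5 times in 5 cases. DESeq2 gave 1 call in place of 0 for the genotype by ORX interaction, 2 in place of 1 for the genotype effect in controls between experiments, and 1 in place of 0 for the androgen effect in KO, for which library-size scaling also gave 1. Library-size scaling gave 3 in place of 5 for KO-ORX against WT-ORX. Leaving out 1 library gave 0 to 1 members for the ORX interaction, 1 to 2 for the difference in controls, 0 to 1 for the androgen effect in KO and 3 to 5 for KO-ORX against WT-ORX. The other counts stayed within 1.5 times under every alternative.

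Over all genes, counts of calls moved from 4 to 127 (DESeq2) and 10 (limma-voom) for the ORX interaction, from 275 to 503 and 183 for the difference in controls, from 177 to 305 (DESeq2) for the androgen effect in KO, and from 784 to 1201 (DESeq2) for DHT in KO. With only the compared groups in the fit they moved from 975 to 485 for ORX in KO, from 784 to 505 for DHT in KO and from 722 to 290 for KO-empty against WT-empty. Library-size scaling changed the share of calls that were lower from 62.5% to 45.6% for ORX in WT, from 64.3% to 21.4% for ORX in KO and from 55.9% to 34.7% for KO-DHT against WT-DHT, and moved the median of all genes by 0.1064 for ORX in KO.

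No called difference changed sign. Uncalled log2 differences that did were, with library-size scaling, *Sat1* (0.03615), *Paox* (0.02538) and *Oaz1* (0.0355) for ORX in WT, *Paox* (0.07302) and *Oaz1* (0.09793) for ORX in KO and *Paox* (0.04764) and *Oaz1* (0.06244) for its interaction, *Azin1* for KO-ORX against WT-ORX (0.0225), DHT in KO (-0.0135) and KO-empty against WT-empty (0.00927), *Srm* for KO-DHT against WT-DHT (0.00992) and the controls between experiments (-0.04985), and *Sms* (-0.01263) and *Smox* (-0.05336) for the androgen effect in KO. The ORX interaction of *Oaz1* changed sign with a minimum of 10 counts (0.00265) and with the replicate block (0.0006779), and that of *Amd2* with summed copies (-0.1176). *Paox* in KO-empty against WT-empty did so with DESeq2 (-0.001757), limma-voom (-0.00918) and without mice 63KR and 61KR (-0.05587). With processed pseudogenes summed, *Paox* changed sign for ORX in WT (0.03404) and KO-sham against WT-sham (0.01325), and *Oaz1* for KO-ORX against WT-ORX (-0.009213) and the DHT interaction (0.01668). The cause was not tested.

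Leaving out 1 library changed the sign of further uncalled values, with these lowest and highest values. *Azin1* ran from -0.04743 to 0.098 for DHT in KO, from -0.1142 to 0.03121 for KO-empty against WT-empty and from -0.0582 to 0.02077 for KO-ORX against WT-ORX. *Oaz1* ran from -0.04164 to 0.04259 for the ORX interaction, -0.04965 to 0.0164 for ORX in KO, -0.05201 to 0.02853 for ORX in WT, -0.003248 to 0.05952 for KO-ORX against WT-ORX and -0.005615 to 0.07493 for KO-sham against WT-sham. *Paox* ran from -0.07986 to 0.05912 for the ORX interaction, -0.09192 to 0.009467 for ORX in KO, -0.09183 to 0.03663 for ORX in WT, -0.1152 to 0.02377 for KO-ORX against WT-ORX, -0.05583 to 0.07332 for KO-empty against WT-empty and -0.08526 to 0.03287 for the controls between experiments. *Srm* ran from -0.1154 to 0.02253 for KO-DHT against WT-DHT, -0.01967 to 0.09718 for the controls between experiments and -0.04331 to 0.07325 for ORX in WT. *Sat1* ran from -0.03124 to 0.01979 for ORX in WT, *Sms* from -0.05924 to 0.01805 for the controls between experiments, and *Smox* from -0.082 to 0.1576 for the androgen effect in KO.

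The labels number replicates in the ORX experiment, but same-numbered samples deviated together weakly (r from -0.1498 to 0.1879, over 0.1 in 6 of 22 pairs), so the numbers were not taken to pair mice. For ORX in WT, however, the same-numbered sample was the closest match in 3 of 6 pairs. For KO-sham against WT-sham it was so in 1 of 6. For ORX in KO and for KO-ORX against WT-ORX it was so in 0 of 5. With the replicate block, members called stayed at 6 for ORX in WT, 4 for ORX in KO, 5 for KO-sham against WT-sham, 5 for KO-ORX against WT-ORX and 0 for the interaction. Counts of calls over all genes stayed within 1.5 times of the main fit with this block. No paired analysis was possible because, for spinalis, the columns carry mouse numbers and not the labels' replicate numbers. Low counts limit *Srm* and *Paox*, and shared reads limit *Amd2*, *Oaz1* and *Sms*.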
